A study of Mus musculus with 8 samples.

Results

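The family examined here holds 10 genes: the ligands Dll3, Dll1, Dll4, Jag1 and Jag2, the receptors Notch1, Notch2, Notch3 and Notch4, and Rbpj. Every probe set that the array annotation assigns to exactly 1 gene, that gene being a member, was taken, which gave 21 probe sets out of 45037 tested, and 10 genes out of 18193. The family was chosen because Dll3 differed between mutant and control arrays, so the differences of all members in that contrast are descriptions and carry no test here.

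Notch signalling passes between touching cells. Delta-like and Jagged ligands on the sending cell bind Notch receptors on the receiving cell, proteases then cut the receptor, and its freed intracellular part joins the DNA-binding protein RBPJ in the nucleus to switch on targets such as the Hes and Hey repressors. DLL3 is the exception among the Delta-like proteins, since it is held mostly inside the cell, does not activate receptors on neighbours and can inhibit Notch within its own cell. In the testis, Notch signalling has been studied mainly in Sertoli cells, the somatic nurse cells of the tubule, and in spermatogonia.

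RNA came from round spermatids, the haploid cells that follow meiosis, of 129 Sv/Ev mice aged 2 to 4 months. The mutants carried BrdtΔBD1, which removes the first bromodomain of Brdt, a testis-specific protein that binds acetylated histones. The comparison animals are named only as controls in the labels, with the same strain and age and no further allele given. There were 4 mutant and 4 control arrays, each made from cells pooled from 7 adults and separated on an albumin gradient. Values are log2 intensities that the authors normalized, with array medians between 3.10 and 3.14, and probe sets under about 4 lie in the dim range that this scale compresses.

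The cells carried the label's markers: all 15 round spermatid genes checked were measured, the list averaged 13.15 to 13.52 per mutant array and 13.21 to 13.46 per control array, and 0 rose or fell (limma, adjusted over all genes), although with the replicate number as a block 1 fell, Catsper1, by 0.61 on the log2 scale. Brdt, at its brightest probe set, was 10.29 to 11.09 on mutant arrays and 11.72 to 12.25 on control arrays. Where that probe set lies relative to the deleted domain is not known here, so it does not check the labels. RNA quality, read as the excess of 3′ over 5′ Gapdh signal at the array's own quality probes, was 0.33 to 0.94 on mutant arrays, against 1.68 and 2.05 on control arrays 1 and 3 and 0.46 to 0.48 on the other controls. For the marker counts in this paragraph, 1.86% of all genes rose and 1.85% fell in limma, and 6.6% rose and 4.94% fell with the block. Markers of Sertoli cells were higher in mutant arrays, where 6 of 24 measured rose and 0 fell (14 rose with the block). Their summed linear level was 6953 to 25275 units on mutant arrays and 2310 to 5862 on control arrays. The Sertoli genes that rose included Vim (log2 difference 2.95) and Cldn11 (1.72), while 8 of the 24 averaged under 4 in both groups, among them Sox9 at 3.80 in each. Of 14 spermatogonial markers 1 rose, Etv5, and 5 with the block, and their mean was 5.08 to 5.90 on mutant arrays and 4.33 to 4.86 on control arrays. Of 15 spermatocyte markers 0 rose and 5 did with the block, Sycp3 among them (log2 difference 0.99), and their mean was 9.92 to 10.93 on mutant arrays and 9.69 to 10.15 on control arrays. Of 12 peritubular and smooth muscle markers 1 rose, Lum, with or without the block, and 0 of the Leydig and of the blood and macrophage markers passed. Endothelial markers, which matter here because endothelium is a main site of Notch4 and Dll4, were dim: 10 of 11 averaged under 4 in both groups, 0 rose or fell, and the summed level was 104 to 142 units on mutant and 101 to 122 on control arrays.

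Among the ligands, Dll3 was bright and lower in mutant spermatids. Its probe set 1449236_at, the only probe set of the gene, read 8.06, 7.78, 8.46 and 8.76 on mutant arrays 1 to 4, against 10.32, 9.87, 10.18 and 10.23 on control arrays 1 to 4. Every mutant array lay below every control array, with a gap of more than 1 log2 unit between the groups, and the mutant arrays spread more widely. The means were 8.26 ± 0.43 in mutant and 10.15 ± 0.20 in control arrays (SD, n = 4 each), a log2 difference of -1.88 (SE 0.21), or a 3.69-fold lower level. Ordered from the most negative difference, Dll3 stood at place 40 of 18193 genes. In a bulk preparation, fewer cells that express a gene and less of its RNA per cell cannot be told apart.

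The gene lies on chromosome 7, and the sequence before its start is shown because it is the member that differed most, together with that of Notch4, the other bright member that was lower in mutant arrays. Both are the 250 bases before the gene's start from RefSeq (GRCm38.p6), Dll3 on the minus strand at chr7:28301786-28302035 and Notch4 on the plus strand at chr17:34564045-34564294. All 10 members had an entry. Capitals mark any of 3 motifs searched on both strands: TATAA, the core of the TATA element, TGGGAA, the core of the RBPJ site, and TGACG, a core of the cAMP response element.
Dll3: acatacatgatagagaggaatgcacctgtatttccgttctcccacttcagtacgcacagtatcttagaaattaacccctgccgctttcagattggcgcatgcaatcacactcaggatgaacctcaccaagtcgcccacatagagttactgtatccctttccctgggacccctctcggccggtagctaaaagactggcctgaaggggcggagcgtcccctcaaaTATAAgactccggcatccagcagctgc
Notch4: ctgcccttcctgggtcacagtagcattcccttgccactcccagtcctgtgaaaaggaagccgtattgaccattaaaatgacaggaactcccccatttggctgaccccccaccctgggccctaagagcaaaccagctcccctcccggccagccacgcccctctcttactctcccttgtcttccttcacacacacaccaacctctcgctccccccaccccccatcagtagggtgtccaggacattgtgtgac
The Dll3 window holds TATAA at position -27 from the start and none of the other motifs, and the Notch4 window holds none of the 3. TATAA occurred in 22.8% of 32851 promoter windows of this length, TGGGAA in 21.6% and TGACG in 17.8%. No other member's window had TATAA. Both windows listed for Rbpj, which overlap, had TGGGAA, and those of Jag1 and Notch3 had TGACG. These matches describe letters only.

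The other ligands did not share the pattern of Dll3. Jag1, which activates Notch receptors, was also bright at probe set 1421105_at, with 8.16, 7.05, 7.61 and 7.50 on mutant arrays and 7.40, 7.97, 7.19 and 7.94 on control arrays. The groups overlapped throughout, and the log2 difference was -0.05 (SE 0.26). A dimmer probe set of Jag1, 1434070_at, had 4.69 on mutant array 1 and 3.01 to 3.81 on the other mutant arrays, against 2.93 to 3.36 on control arrays. Jag2, the related ligand, read 4.85, 4.73, 5.23 and 4.50 on mutant arrays and 4.71, 4.71, 4.61 and 4.38 on control arrays, a log2 difference of 0.23 (SE 0.16) with overlapping groups. At this probe set Jag2 was higher in the mutant array of each of the 4 same-numbered pairs, by 0.02 to 0.61. Over the 17 alternatives its difference ran from 0.0046, with repeated quantile normalization, to 0.38, with array weights. The dimmer probe set of Jag2, 1426430_at, differed by 0.05 with overlapping groups. There the mutant array was higher in pairs 1 and 3 and lower in pairs 2 and 4.

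The activating ligands Dll1 and Dll4 and the receptors Notch1, Notch2 and Notch3 were dim at all 9 of their probe sets. Readings ran from 2.14 to 3.50 on mutant arrays and from 2.27 to 3.77 on control arrays, the groups overlapped at all 9, and log2 differences lay between -0.21 and 0.35. The largest of these was at 1455556_at of Notch2, with 3.47, 2.68, 3.22 and 3.14 on mutant arrays against 2.86, 2.76, 2.73 and 2.76 on control arrays, while its other probe set differed by -0.13. The scale compresses differences at this level, so the overlap does not show equal RNA.

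**Figure D1:**
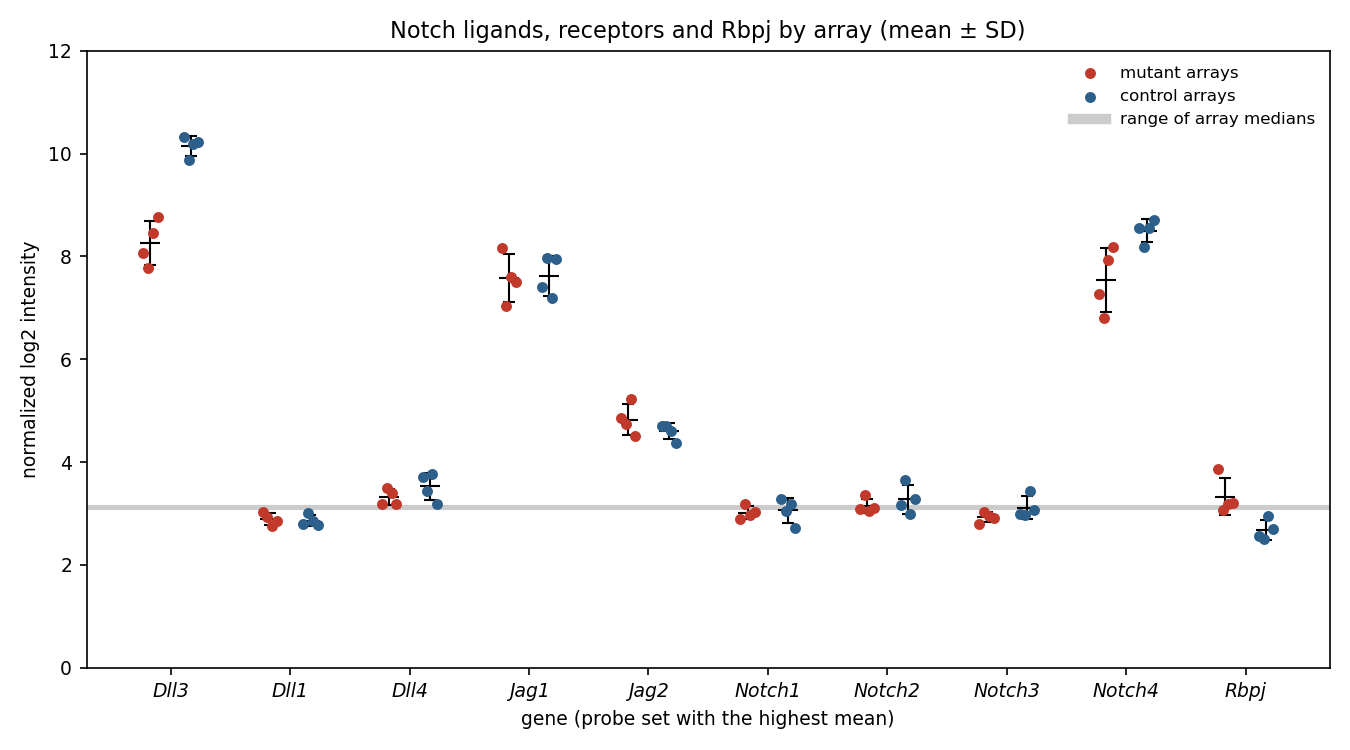
Normalized log2 intensity (vertical axis) of each of the 10 genes at its brightest probe set, with mutant arrays in red left of control arrays in blue, black marks for mean ± SD (n = 4 each) and a grey band for the range of array medians, 3.10 to 3.14. Dll3 is separated between the groups, at 7.78 to 8.76 in mutant against 9.87 to 10.32 in control arrays, Notch4 touches, and levels of different genes are not comparable because each probe set binds differently.

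Among the receptors, Notch4 was the bright member. At 1449146_at it read 7.28, 6.80, 7.93 and 8.17 on mutant arrays, against 8.56, 8.18, 8.54 and 8.70 on control arrays. The groups were barely separated, mutant array 4 at 8.174 lying next to control array 2 at 8.179. The means were 7.55 ± 0.63 in mutant and 8.50 ± 0.22 in control arrays (SD, n = 4 each), a log2 difference of -0.95 (SE 0.29) or a 1.93-fold lower level. Notch4 was lower in the mutant array of all 4 pairs, with log2 differences of -1.28, -1.38, -0.61 and -0.53 for pairs 1 to 4, beside -2.25, -2.09, -1.72 and -1.47 for Dll3, so both differences were larger in pairs 1 and 2 than in pairs 3 and 4.

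The brightest probe set alone showed this difference. The other probe sets of Notch4, 1436901_at and 1456263_at, lay below every array's median, at 2.23 to 2.87 on mutant and 2.25 to 2.98 on control arrays, with log2 differences of -0.08 and -0.10. Averaged over the 3 probe sets, the log2 difference of Notch4 was -0.38 (SE 0.12). As background, shortened Notch4 transcripts have been described in mouse testis germ cells, and which part of the transcript each probe set reads is not known here.

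Rbpj, the nuclear partner of all Notch receptors, was dim, and 2 of its probe sets, though not the third, were higher in mutant arrays without overlap. At 1448957_at it read 3.86, 3.07, 3.18 and 3.20 on mutant arrays and 2.56, 2.51, 2.95 and 2.70 on control arrays, a log2 difference of 0.65 (SE 0.19). At 1454896_at it read 3.87, 3.001, 3.26 and 3.07 on mutant arrays and 2.14, 2.49, 2.43 and 1.94 on control arrays, a log2 difference of 1.05 (SE 0.21 in the fit over probe sets). The third probe set, 1418114_at, did not separate them, with a difference of 0.04. Mutant array 1 was highest at both separated probe sets, and all Rbpj readings lay under 4.

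**Figure D2:**
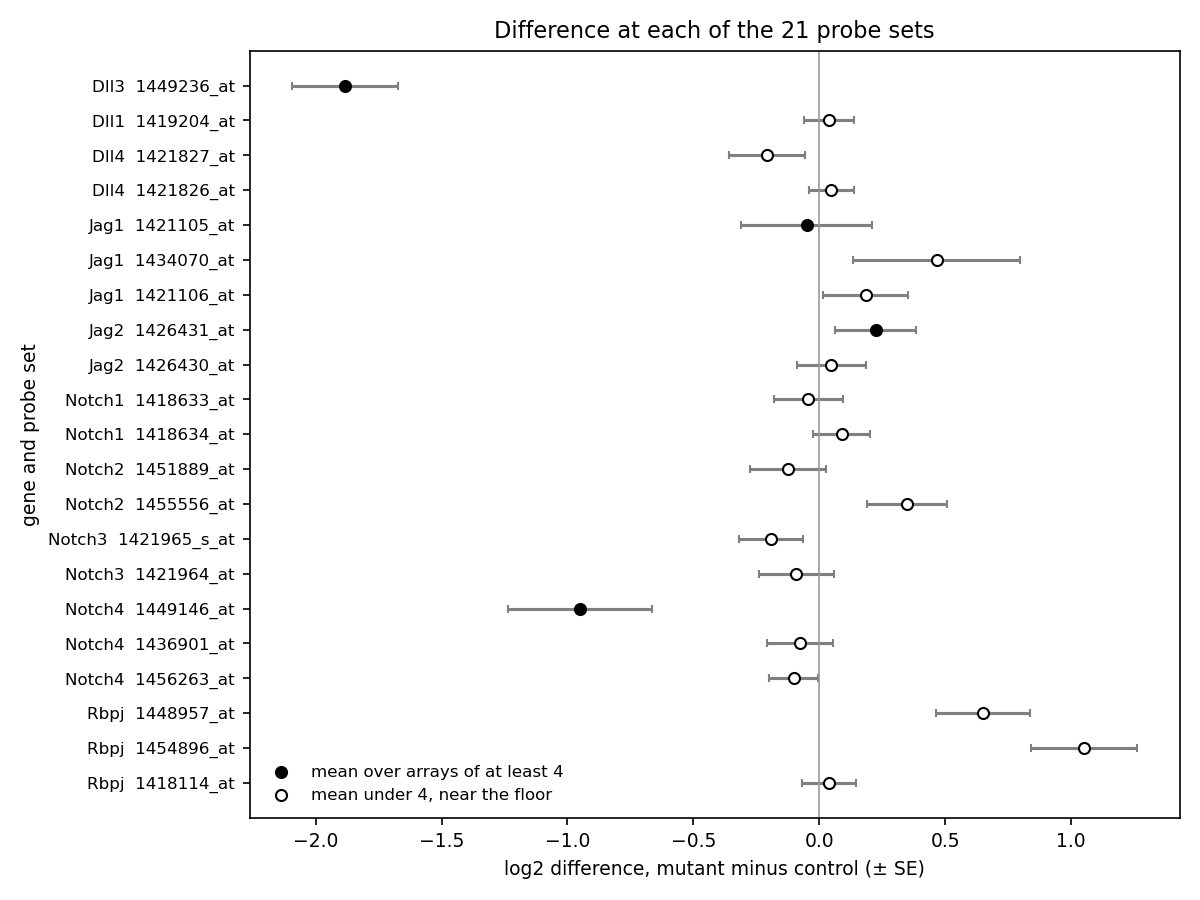
Log2 difference, mutant minus control, with its SE from limma over probe sets (horizontal axis), for the 21 probe sets of the family, filled where the mean over the 8 arrays is at least 4. Dll3 at -1.88 and the brightest Notch4 probe set at -0.95 lie to the left, 2 dim Rbpj probe sets at 0.65 and 1.05 to the right, and the rest between -0.21 and 0.47.

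In counts, 1 of the 10 members was past the threshold and lower in mutant arrays, Dll3, where 1.85% of all genes were (adjusted p under 0.05, limma over 18193 genes). Members past it and higher numbered 0, where 1.86% of all genes were, and an unadjusted p under 0.05 was reached by 1 member that was higher and 2 that were lower, where 11% of all genes were higher and 9.16% lower at that level. With the replicate number as a block, Dll3 and Notch4 were past it, 2 of 10 where 4.94% of all genes were, and 0 members were past it and higher, where 6.6% of all genes were. Without control arrays 1 and 3, 0 members passed, while the difference of Dll3 was -1.78 (SE 0.29). In that fit only 18 of the 18193 genes rose and 50 fell. The groups were without overlap for Dll3 and Notch4, lower in mutant arrays, as for 6.49% of all genes, and for Rbpj, higher in mutant arrays, as for 6.15%. The median log2 difference was -0.09 over the 10 members and -0.02 over all genes. Since the members were chosen with this contrast known, nothing is read from these counts.

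Within each group, Notch4 followed Dll3 from array to array. Deviations from the group means correlated with r = 0.97 over the 8 arrays, while for the other 8 members r ran from -0.70 for Dll1 to 0.0017 for Notch3. Those 8 include the 6 members whose brightest probe set averaged under 4, where little variation can be read. Such an r was not particular to Notch4. Tmem189 and Ccs, bright genes outside the family picked below for their likeness to Dll3, had r = 0.96 by the same measure. The arrays share their replicate numbers and overall composition, so these are descriptions. Sertoli markers averaged 6.80, 5.63, 7.14 and 6.70 for the 4 mutant arrays in order, and 4.80, 4.90, 5.59 and 5.39 for the 4 control arrays. Mutant array 2, with the lowest Sertoli mean of the mutant arrays, also had the lowest Dll3 and Notch4 readings. Among the mutant arrays it also had the highest spermatocyte mean, 10.93, the highest Leydig mean, 3.70, and the lowest round spermatid mean, 13.15. The part of these somatic and germ cell markers and of RNA quality in the differences was not tested.

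**Figure D3:**
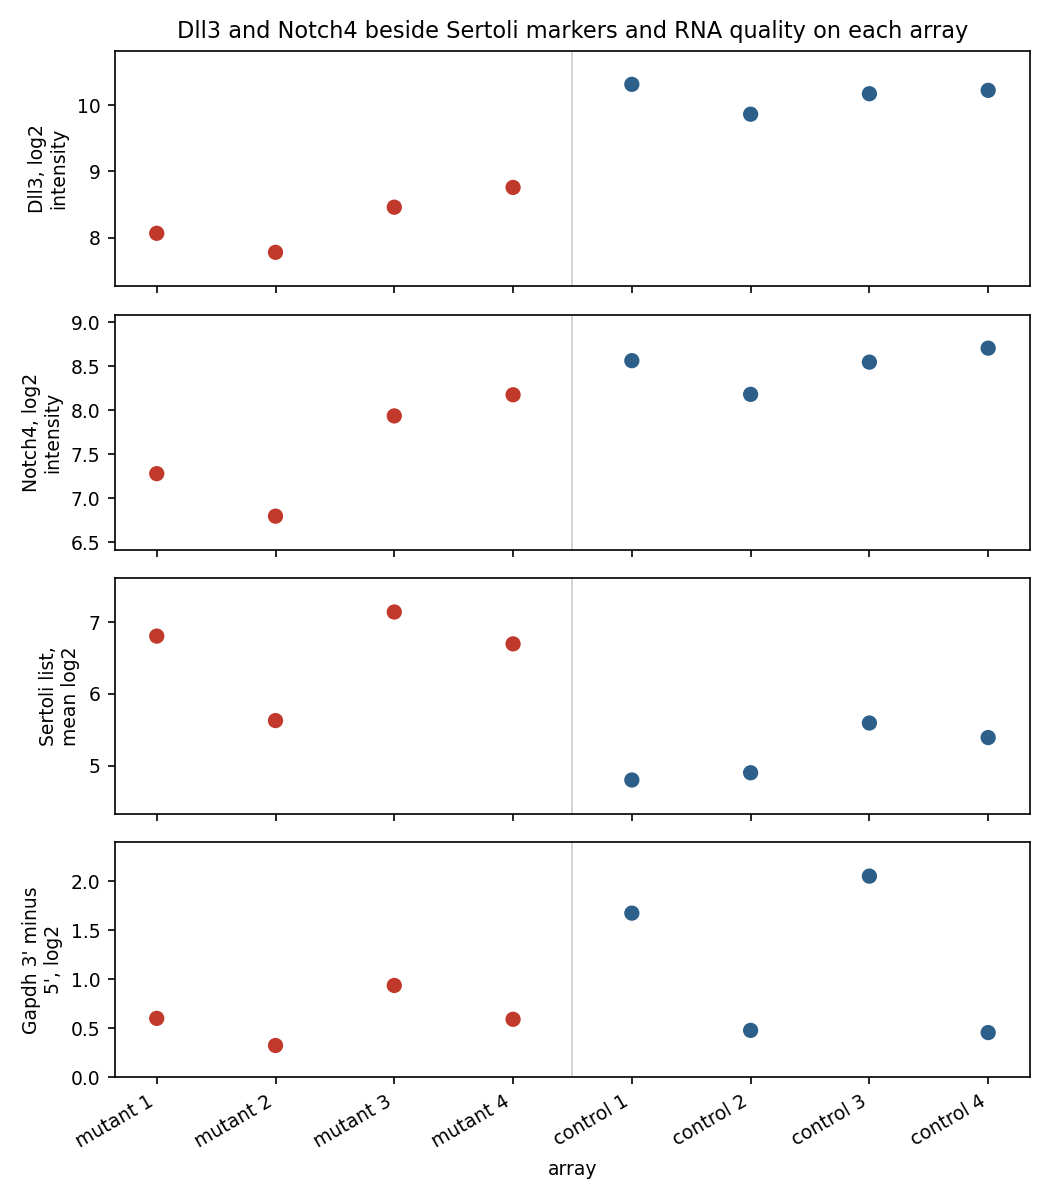
Dll3 and Notch4 (log2 intensity), the mean log2 level of 24 Sertoli markers and the excess of 3′ over 5′ Gapdh signal (vertical axes), for mutant arrays 1 to 4 in red and control arrays 1 to 4 in blue (horizontal axis). Dll3 and Notch4 have the same order within the mutant arrays, lowest on array 2, and the Gapdh excess sets control arrays 1 and 3 apart at 1.68 and 2.05.

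Genes whose values over the 8 arrays were most like those of Dll3 were sought among 6898 genes with a mean of at least 5. The highest Pearson r was that of Tmem189 (r = 0.995), followed by Csrp2, Smad6, Dcbld2 and Ccs (r = 0.991 for each). All 5 were lower in mutant arrays, by log2 differences from -2.40 for Csrp2 to -0.77 for Smad6, which is part of the likeness. Their deviations from the group means correlated with those of Dll3 at r = 0.89 to 0.96. The most opposite genes were Pspc1 (r = -0.991), Yy1 (r = -0.984) and Mrpl48 (r = -0.984), which were higher in mutant arrays by 1.02, 1.97 and 0.93.

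The other genes of the pathway were not members, and 50 of 54 listed were measured. Their list was also drawn up with earlier results of these data known, so their p-values are not independent tests. In the test over all genes 2 of the 50 rose and 0 fell, or 4% against 1.86% of all genes for rises, and 10 were higher and 3 lower at an unadjusted p below 0.05 (limma), against 11% and 9.16% of all genes. Given the replicate block 5 of the 50 rose and 1 fell, where 6.6% of all genes rose and 4.94% fell. In these counts, which share genes, the share of the 50 that was higher exceeded that of all genes. The share that was lower fell short of it, and neither gap was tested. The excess depended on the processing. With array weights 4 of the 50 rose, where 980 of the 18193 genes did. With repeated quantile normalization 1 rose, where 422 did, and adjusted over all probe sets 0 rose, where 189 did. Nothing is read from these small counts. The median log2 difference of the 50 genes was 0.04.

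Both rises were HECT ubiquitin ligases, which mark proteins for turnover, and Itch is known to act on Notch. Itch read 5.27, 5.72, 5.75 and 4.94 on mutant arrays and 4.52, 4.37, 4.59 and 4.71 on control arrays, a 1.83-fold rise without overlap (log2 difference 0.87, SE 0.19, limma adjusted p = 0.044). Its 3 other probe sets, all dim, differed by -0.04 to 0.05. Nedd4 read 6.96, 5.56, 5.998 and 5.94 on mutant arrays and 3.56, 4.08, 5.05 and 4.81 on control arrays, a 3.33-fold rise without overlap (log2 difference 1.74, SE 0.38, limma adjusted p = 0.045). Its other probe sets were also higher, by 1.03 and 0.89. Each rise missed the threshold in 7 of the 8 fits that leave out 1 array. In these fits 70 to 755 of all genes rose, against 339 with every array. The log2 differences there were 0.76 to 1.03 for Itch and 1.46 to 1.96 for Nedd4. Averaging all probe sets gave 0.21 for Itch and 1.22 for Nedd4. The 17 alternatives gave a limma adjusted p of 0.020 to 0.32 for Itch and of 0.014 to 0.17 for Nedd4.

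Among the proteases, Adam10, which makes the ligand-triggered cut in the receptor, had a log2 difference of 2.06 (SE 0.50) that missed the threshold (limma adjusted p = 0.058) and passed with the block (adjusted p = 0.011; 0.0072 to 0.19 over the 17 alternatives). It read 7.98, 5.90, 8.22 and 7.09 on mutant arrays and 5.25, 4.92, 6.01 and 4.75 on control arrays, so mutant array 2 lay within the control range. Its 3 other probe sets, all dim, differed by -0.25, 0.38 and 0.11, and averaging the 4 gave a log2 difference of 0.58. Adam17, a related sheddase, differed by 0.65. Of the γ-secretase genes measured, Ncstn, Psenen, Aph1a, Aph1b and Psen2 differed by 0.03 to 0.26, and none passed in limma with or without the block. Aph1b and Psen2, both dim, were higher in mutant arrays without overlap, by 0.26 and 0.21, as were 6.15% of all genes. Adam10 was high on the mutant arrays where the Sertoli mean was high. Dtx4, described below, had the same order of mutant arrays, and Nedd4 was also lowest on mutant array 2, while Itch and Numb were not. The part of Sertoli cells in the levels of these genes was not tested.

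Of the 5 Deltex genes measured, whose proteins include binders of Notch inside the cell, none passed without the block. Dtx1, Dtx2 and Dtx3l had log2 differences of -0.20, -0.36 and 0.19. Dtx3 read 7.11, 7.57, 8.07 and 8.44 on mutant arrays and 8.95, 8.50, 8.90 and 8.94 on control arrays, a log2 difference of -1.03 (SE 0.27; limma adjusted p = 0.075, and 0.035 with the block, range over 17 alternatives 0.035 to 0.34). Dtx4 read 5.17, 3.69, 5.27 and 4.93 on mutant arrays and 3.94, 3.51, 3.67 and 3.46 on control arrays, a log2 difference of 1.12 (SE 0.33; limma adjusted p = 0.098, and 0.036 with the block, range over 17 alternatives 0.0026 to 0.28). The other probe set of Dtx4 was dim and differed by 0.05, and averaging both gave a log2 difference of 0.58. Numb, an inhibitor of Notch that segregates to 1 daughter cell in dividing precursors, had a log2 difference of 0.72 (SE 0.28; limma adjusted p = 0.19, and 0.024 with the block, range 0.024 to 0.44). Its other probe set, 1425368_a_at, differed by -0.37.

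Genes listed as targets of the pathway, namely Hes and Hey genes and Nrarp, were mostly dim. Whether each of them responds to Notch in these cells was not tested. Of 10 measured, 0 rose and 0 fell, with or without the block. Of all genes, 1.86% rose and 1.85% fell, or 6.6% and 4.94% with the block. At those shares, counts of 0 in the short lists of this paragraph are not informative. At an unadjusted p under 0.05 (limma), 1 was higher, Hes6 by 0.41, and 0 lower, where 11% of all genes were higher and 9.16% lower. Hes1 read 2.94 to 3.30 on mutant arrays and 2.88 to 2.96 on control arrays, and Hey1 4.52 to 4.85 on mutant and 4.60 to 4.69 on control arrays, with log2 differences of 0.18 and 0.10. The sign of Hey1 turned when the values were quantile-normalized again. Hey1 was the 1 target with a mean of at least 4, and the other 9 lay in the range that the scale compresses. Of the 6 glycosyltransferases that attach sugars to Notch, 0 passed. Lfng, which extends those sugars, differed by -0.18. Of the 7 nuclear cofactors measured, 0 passed, and Maml1, the coactivator that joins RBPJ and Notch on DNA, differed by -0.29. Spen, an RBPJ cofactor chosen for mention after its values were seen, had the most negative difference of the 50 genes, -1.19 (SE 0.49; limma adjusted p = 0.22, and 0.064 with the block). It read 7.68, 7.57, 9.20 and 9.63 on mutant arrays and 10.05, 8.94, 9.74 and 10.11 on control arrays, with overlapping groups.

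**Figure D4:**
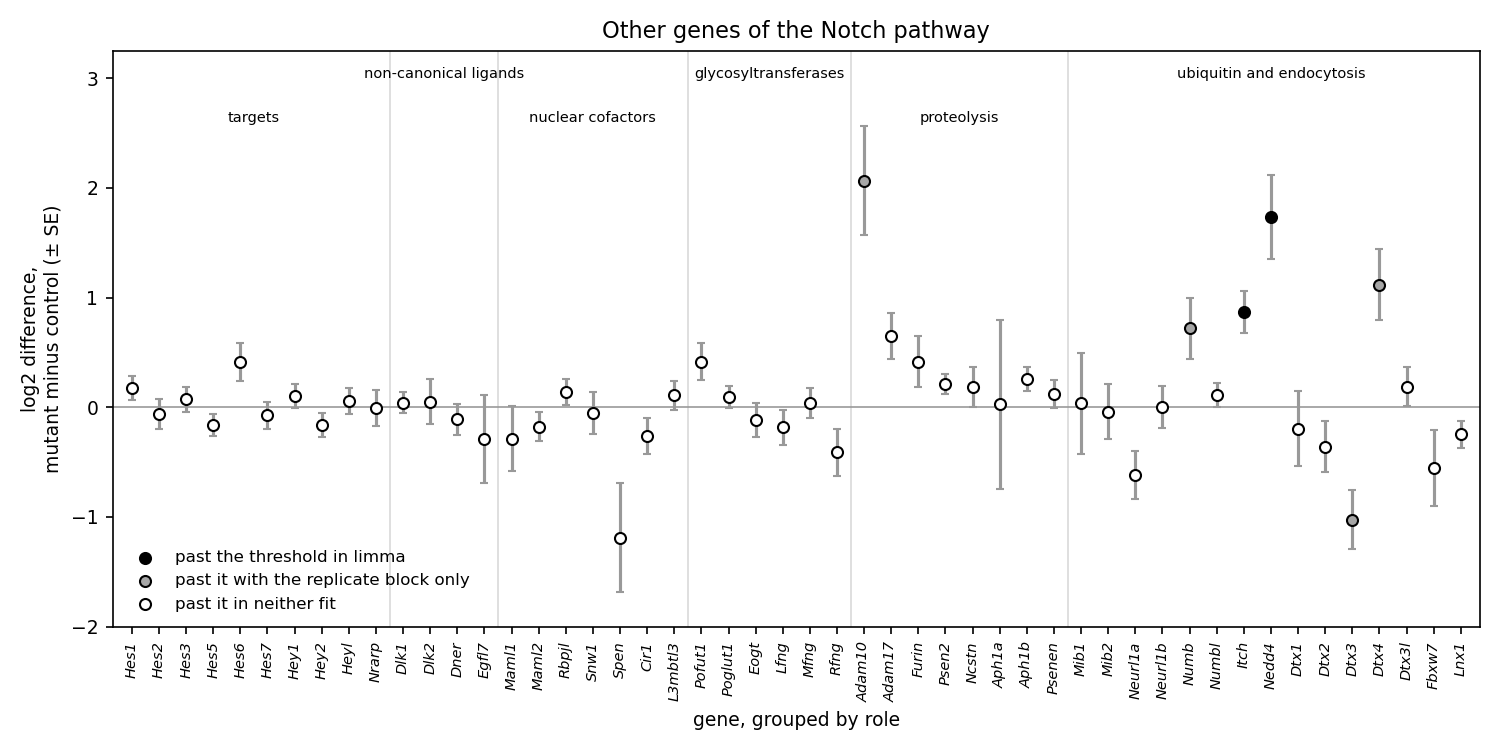
Log2 difference, mutant minus control, with its SE from limma (vertical axis), for the 50 other genes of the pathway grouped by role (horizontal axis), black where past the threshold, grey where past it with the replicate block only. Itch at 0.87 and Nedd4 at 1.74 are the black points, Adam10, Numb, Dtx3 and Dtx4 the grey points, and the targets stay between -0.16 and 0.41.

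Of the 17 alternatives, 5 leave the difference of Dll3 at -1.88 by construction and change only its error or the genes tested with it, since the gene has 1 probe set and the arrays are balanced. Over the other 12 the difference ran from -2.05 without mutant array 4 to -1.69 with array weights.

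**Figure D5:**
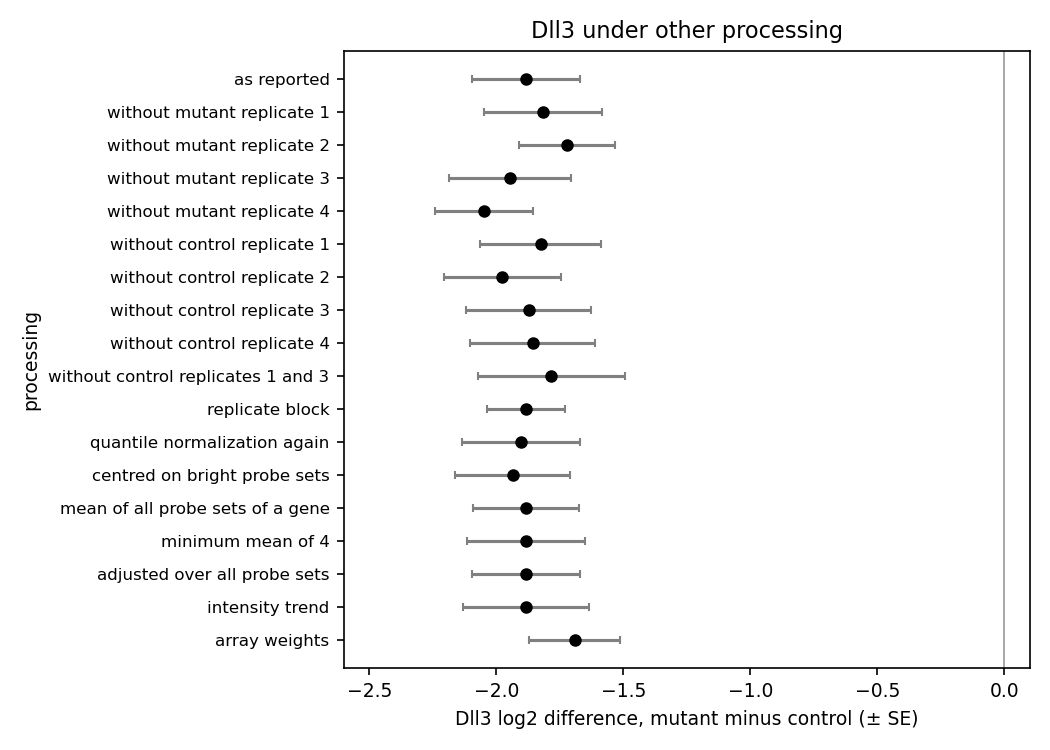
Dll3 log2 difference, mutant minus control, with its SE (horizontal axis), as reported and under 17 alternatives (vertical axis). The 12 alternatives that can move the value lie between -2.05 and -1.69, and the SE is widest, 0.29, without control arrays 1 and 3.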

How the data were processed

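RNA of 4 mutant and 4 control round spermatid preparations was labelled from 2 µg and hybridised to Affymetrix arrays, per the labels' protocols. The table deposited by the authors holds normalized log2 intensities for each probe set. GCRMA and limma are named in the submitters' processing notes, with versions and roles not given in the sources used here. Range and medians of the columns fit a log2 scale. Of 45101 probe sets, 64 controls were left out. Probe sets with several genes (932) or unnamed (9160) name no gene. Symbols were updated through the GRCm38.p6 gene table, and each of 18193 genes was represented by the brightest probe set that names it alone.

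Groups came from the sample titles. The fits used limma 3.58.1 (R 4.3.3; lmFit, eBayes, two-sided), with p adjusted by Benjamini-Hochberg over all genes and a threshold of 0.05. Same-numbered mutant and control arrays deviated together (r = 0.36, 0.42, 0.50 and 0.41 for pairs 1 to 4, and at most -0.02 for other combinations), so a fit with the replicate number as a block is given where it changes a call. The labels name no shared litter or day. The fit was tested on simulated data. The number of arrays limits the precision.

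The members and gene lists were chosen with earlier results of these data known. Named in the text were all members, the pathway genes past the threshold, the 5 with the smallest p, a fixed set (Hes1, Hey1, Lfng, Adam10, Maml1 and Numb, with a further gene not analysed here), and the 5 most like and 3 most opposite genes to Dll3. The γ-secretase genes, Adam17, the other Deltex genes and the markers were named beside them. Alternatives left out arrays or changed the block, scaling, probe set choice, filter, tested family or variance model.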

Additional observations from a re-analysis of the deposited data

Results flagged for a closer look

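In 3 of 62 groups of 4 arrays, over the members' probe sets and the named pathway genes, a single array lay far from the others by Dixon's ratio, where chance gives about 1 in 20. Rbpj at 1448957_at read 3.86 on mutant array 1, against 3.07 to 3.20 on the other mutant arrays. Notch3 at 1421964_at read 2.14 on mutant array 1, against 2.66 to 2.76 on the others, in the dim range. Dtx3 read 8.50 on control array 2, against 8.90 to 8.95 on the other control arrays. Without mutant array 1, the Rbpj difference was 0.47.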

How the results depend on the processing

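The Dll3 difference ran from -2.05 to -1.69 over the 12 alternatives that can move it (-2.05 to -1.72 with 1 array left out). Members past the threshold and lower in mutant arrays numbered 1 in each fit without 1 array, where 129 to 376 of all genes fell. They numbered 2 with the replicate block, where 899 of all genes fell. Without control arrays 1 and 3, where 50 of all genes fell, they numbered 0, and 1 member was lower at an unadjusted p under 0.05 (limma). Members past the threshold and higher numbered 1, Rbpj, with the mean of all probe sets, where 292 of all genes rose, and 0 otherwise. The count of other pathway genes that rose moved most, and the count over all 18193 genes, given in brackets, moved too. It was 0 to 3 with 1 array left out (70 to 755), 5 with the replicate block (1201) and 4 with array weights (980). It was 1 with repeated quantile normalization (422) or the mean of all probe sets (292). It was 0 when adjusted over all probe sets (189) or without control arrays 1 and 3 (18). In those last fits, 10 and 9 pathway genes were higher at an unadjusted p under 0.05 (limma). Other pathway genes that fell numbered 0 to 1 with 1 array left out (129 to 376 of all genes) and 1 with the replicate block (899). Without mutant array 2, Adam10, Nedd4 and Dtx4 rose. The small differences of Hey1 and Maml1 changed sign, to -0.12 for Hey1 with repeated quantile normalization and to 0.013 for Maml1 without control array 3 (-0.47 to 0.013 with 1 array left out) and to 0.12 without control arrays 1 and 3. The cause was not tested. Dim probe sets limit what can be seen, since 17 of the 21 member probe sets averaged under 4, and scanner files, which would allow another background correction, were not used here.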
